A study of Mus musculus with 90 samples.

Results

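The receptors of the SLAM family were followed here through 8 genes of the array annotation, Slamf1, Slamf6, Slamf7, Slamf8, Slamf9, Ly9, Cd48 and Cd84, out of 18193 genes measured. They are covered by 13 of the 45101 probe sets deposited. The genes were taken by name, with no threshold on their values but with earlier results of these data known. None lacked a probe set. RNA had been profiled on Affymetrix mouse arrays, with 90 arrays of melanoma allografts in B6.cBrd mice. Every group carries the same tumour genotype, an Hgf transgene (the ligand of the Met receptor) with the R24C form of Cdk4 on both alleles. Stabilization (3 arrays), Relapse (6), Responder (27), GrowthDelay (2) and NonResponder (23) tumours came from mice given an antibody against PD-L1 (mouse IgG1 carrying D265A, a change in the Fc region). Control IgG tumours (22) came from mice given an isotype antibody with the same change, and PBS tumours (7) from mice given the vehicle. Both antibodies are labelled with a dose of 10 mg/kg.

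The groups under the PD-L1 antibody are defined by growth of the tumour. Responder tumours had lost at least 5% of their volume and were collected after 2 to 12 doses. NonResponder tumours kept growing and were collected at similar times. Stabilization tumours belong to the responding tumours and held the same volume over 2 consecutive measurements. Relapse tumours became too small to measure and then grew back, after 4 to 10 doses. GrowthDelay tumours grew only after treatment with the antibody. Neither mouse ages nor the timing of each array are used here, and the labels do not say that each array is a separate mouse, so p-values measure only how far these samples spread, which may be technical.

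SLAM family receptors are immunoglobulin-like surface proteins of blood cells, and most of them bind the same receptor on a neighbouring cell. In several members the tail carries tyrosine motifs that recruit the adaptor SAP, encoded by Sh2d1a. SAP brings in the kinase Fyn, and phosphatases are recruited where the adaptor is missing. SLAM receptors are known for tuning the contact of T cells, natural killer cells and B cells with their partners and, in phagocytes, the handling of engulfed material. CD48 differs in having no tail of its own and serves as the ligand of CD244 and, in mice, of CD2. SLAMF8 and SLAMF9 have short tails without those motifs and are found mainly on myeloid cells.

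All 8 genes lie on chromosome 1. In the RefSeq annotation (GRCm38.p6) 6 members follow each other in the order Ly9, Slamf7, Cd48, Slamf1, Cd84 and Slamf6, interrupted only by Tma7-ps. Slamf9 and Slamf8 lie apart from it, with 14 protein-coding genes between Slamf6 and Slamf9 and 4 between Slamf9 and Slamf8. The RefSeq table of promoters (GRCm38.p6), which gives 250 bases before and 50 after each gene's start, held 7 of the 8 members and no entry for Ly9. The 7 promoters were searched on both strands for the ISRE core, bound by interferon regulatory factors, for TTCNNNGAA, the site type bound by STAT proteins, and for GAGGAAG, a core bound by the myeloid factor PU.1. These occur in 3.44%, 8.30% and 13.6% of 32851 promoters of the same length. The ISRE core was found in Slamf8, from 15 bases before the start on the strand opposite to the gene, and the PU.1 core in Slamf9, from 8 bases before the start on the strand of the gene. The other 5 members, Slamf7 among them, held none of the 3, and the matches did not overlap. A match is a description of letters, neither a binding site nor a cause, and its absence says only that the letters are not in this window. The promoters of Slamf8 and Slamf7, whose transcripts differed most between the main groups, and of Slamf9, the only other one with a match, are printed 5′ to 3′ on the strand of the gene, with the matched letters in capitals. They lie at chr1:172590519-172590818 (minus strand, Slamf8), chr1:171648950-171649249 (minus strand, Slamf7) and chr1:172475110-172475409 (plus strand, Slamf9).
Slamf8: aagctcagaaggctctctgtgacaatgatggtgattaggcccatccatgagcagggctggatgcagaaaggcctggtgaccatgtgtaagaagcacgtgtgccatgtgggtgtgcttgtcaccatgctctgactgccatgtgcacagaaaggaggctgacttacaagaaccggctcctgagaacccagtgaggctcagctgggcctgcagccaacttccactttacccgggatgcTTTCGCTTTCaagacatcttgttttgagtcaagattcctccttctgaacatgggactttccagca
Slamf7: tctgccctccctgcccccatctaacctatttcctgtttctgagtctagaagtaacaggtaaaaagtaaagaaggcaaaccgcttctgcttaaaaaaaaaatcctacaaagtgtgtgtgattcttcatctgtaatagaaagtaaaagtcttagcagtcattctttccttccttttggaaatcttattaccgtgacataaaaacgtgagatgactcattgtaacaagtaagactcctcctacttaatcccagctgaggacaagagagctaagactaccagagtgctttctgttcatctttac
Slamf9: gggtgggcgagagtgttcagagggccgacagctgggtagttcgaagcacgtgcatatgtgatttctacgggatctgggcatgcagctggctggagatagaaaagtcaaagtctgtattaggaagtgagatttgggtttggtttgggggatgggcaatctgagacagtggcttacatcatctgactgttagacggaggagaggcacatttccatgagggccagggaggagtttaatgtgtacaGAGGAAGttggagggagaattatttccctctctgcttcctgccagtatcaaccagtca

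Values are log2 expression after RMA (robust multi-array average), and each gene is read from its brightest probe set. A difference of 1 is a doubling, and a level of one gene cannot be set against that of another, because probe sets differ in brightness. Titles fall into 4 number ranges, called title series here, whose meaning the labels do not give. The larger series (53 arrays) and the smaller series (25 arrays) both hold Relapse, Responder and NonResponder tumours. Stabilization tumours lie only in the smaller series and GrowthDelay tumours only in the larger one. The other ranges hold control IgG alone (8 arrays) and PBS alone (4). Differences between groups come from a linear model with group and title series (limma), and a gene is called when its Benjamini-Hochberg adjusted p over all 18193 genes is under 0.05.

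Array medians lay between 5.71 and 5.90. The 5 arrays with the lowest mean correlation with the others are said here to stand apart, with no cut-off on that value. They had 0.883 to 0.950 (up to 0.983 elsewhere). These were Responder replicates 4, 20 and 21, Stabilization replicate 1 and NonResponder replicate 14. Responder replicate 20 and NonResponder replicate 14 carried B cell genes at mean levels of 10.43 and 10.32 and lymph node stroma genes at 9.99 and 9.56. In the 84 arrays outside these 5 and Relapse replicate 6, B cell levels ran from 4.76 to 5.96 and stromal levels from 5.02 to 6.09. Relapse replicate 6 had a B cell level of 7.42. Responder replicate 21 carried skeletal muscle genes at 13.82, while those 84 arrays ran from 5.07 to 12.56. The melanocyte genes that define the tumour were present in every group, with levels of 10.03 to 11.46 in the 84 arrays and as low as 7.40 in Responder replicate 21. NonResponder replicate 14 had the highest value of its group for each of the 8 SLAM genes, and the calls of members that these arrays change are given with and without them. The marker and partner lists were fitted with all arrays only.

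In tumours that regressed under the PD-L1 antibody, SLAM transcripts were more abundant than in tumours that grew under it. Responder tumours exceeded NonResponder tumours in 7 of the 8 genes, and Slamf6 missed the threshold. Over all genes 17.2% were called higher and 29.8% lower in this comparison. Slamf8 differed most, by 3.57-fold, followed by Slamf7 with 2.13-fold. The median difference of the 8 members was 0.78 on the log2 scale, against -0.06 for all genes. With each array centred on its median, 2058 genes were called higher out of 11185 called in all, against 3138 out of 8552 without centring, and the same number of members, 7, was called.

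Slamf8 encodes a myeloid receptor that, in mouse macrophages, restrains the oxidative burst. Its lowest, median and highest values were 4.97, 8.59 and 10.55 in Responder tumours, against 3.81, 6.24 and 9.68 in NonResponder tumours. The ranges overlapped, yet 24 of 27 Responder arrays lay above the NonResponder median. The fitted difference was 1.84 ± 0.31 (log2, SE; adjusted p = 5.17e-05), which ranked 6 of 18193 genes by size in the direction of Responder. NonResponder replicate 14 alone reached 9.68, and the next NonResponder array stood at 7.17, a value exceeded by 19 of 27 Responder arrays.

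Slamf7 is a receptor of natural killer cells, plasma cells and phagocytes. It read 5.55, 7.67 and 9.30 (lowest, median, highest) in Responder tumours, against 5.43, 6.18 and 9.78 in NonResponder tumours. The top of the NonResponder range was again replicate 14, and the next array of that group had 6.80, below 20 of 27 Responder arrays. Slamf7 rose by 1.09 ± 0.21 (adjusted p = 0.000194).

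Ly9, the Ly-9 antigen of T and B cells, had 6.89, 8.27 and 10.31 in Responder tumours, against 5.88, 7.41 and 10.47 in NonResponder tumours, a difference of 0.87 ± 0.21 (adjusted p = 0.00149). Cd48, the ligand of CD244 and CD2, had 6.53, 8.73 and 10.98 in Responder tumours, against 6.04, 7.82 and 11.26 in NonResponder tumours, a difference of 0.86 ± 0.23 (adjusted p = 0.00284). Both groups overlapped over most of their range, and no Responder array exceeded NonResponder replicate 14 in either gene. Cd84, a receptor of myeloid cells, platelets and B cells, had 6.66, 8.96 and 10.29 in Responder tumours, against 6.15, 7.93 and 10.57 in NonResponder tumours, a difference of 0.71 ± 0.21 (adjusted p = 0.00547). These ranges overlapped too, with 22 of 27 Responder arrays above the NonResponder median.

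The remaining 3 members changed less. Slamf1, the founding receptor of the family on activated T cells, differed by 0.52 ± 0.20 (adjusted p = 0.0265), with medians of 5.49 in Responder and 5.07 in NonResponder tumours. Slamf9, found on macrophages and dendritic cells, differed by 0.44 ± 0.15 (adjusted p = 0.0149), with medians of 8.92 and 8.42 in the same groups. Slamf6, a receptor of T cells and natural killer cells, differed by 0.28 ± 0.13 and was not called (adjusted p = 0.0686). Its medians were 5.30 in Responder and 5.07 in NonResponder tumours. Without the 5 arrays that stood apart all 8 members were called, with 16.7% of all genes higher, and Slamf6 read 0.29 ± 0.08 (adjusted p = 0.00441). Without NonResponder replicate 14 alone all 8 were called as well, with 20.0% of all genes higher, and Slamf8 read 2.01.

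**Figure D1:**
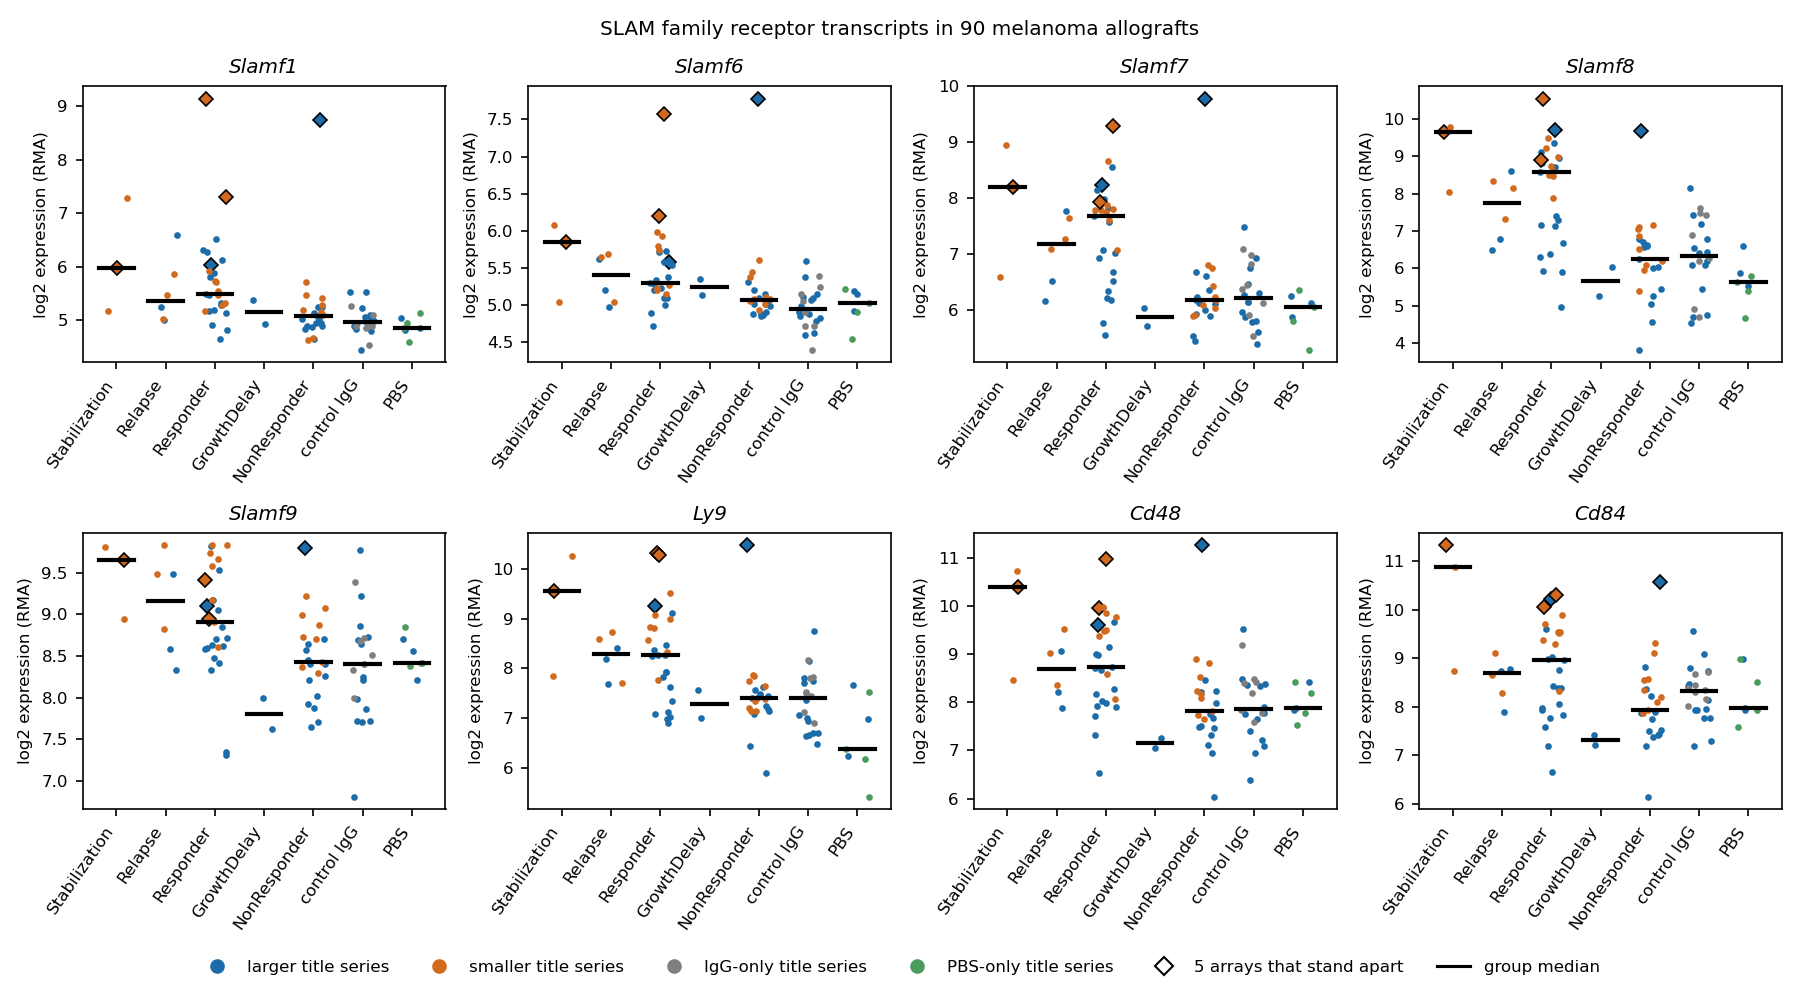
Log2 expression (RMA, vertical axis) of each SLAM family gene by group, 1 point per array, coloured by title series, with a bar at the group median and diamonds for the 5 arrays that stand apart. Most Responder arrays lie above most NonResponder arrays for Slamf7 and Slamf8, while the single NonResponder diamond (replicate 14) is the highest of its group in every panel.

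Only 3 members have more than 1 probe set, Slamf1, Slamf6 and Cd84, and these did not always behave alike. For Slamf6 a second probe set, fitted among 45037 probe sets, was called between Responder and NonResponder (0.47 ± 0.18, adjusted p = 0.0324), while the one used here was not (0.28 ± 0.13, adjusted p = 0.0754 in that fit). The remaining Slamf6 probe set differed by 0.07 ± 0.08. Of the 3 Slamf1 probe sets only the brightest was called, and the other two differed by 0.17 ± 0.10 and 0.02 ± 0.06. The second Cd84 probe set rose by 0.65 ± 0.15 (adjusted p = 0.000990), beside 0.71 ± 0.21 for the first. Against control IgG, in the same fit over probe sets, neither the Slamf6 probe set used here (0.40 ± 0.16, adjusted p = 0.0505) nor the second (0.36 ± 0.22, adjusted p = 0.192) was called. The remaining Slamf6 probe set stood at -0.06 ± 0.10 there. Of Slamf1 only the brightest was called there, and the others stood at 0.14 ± 0.12 and 0.02 ± 0.07. Neither Cd84 probe set was called against control IgG. The second stood at 0.44 ± 0.18 (adjusted p = 0.0516), beside 0.26 ± 0.25 (adjusted p = 0.427) for the first.

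For every member the estimated Responder difference was larger in the smaller title series, though the test between the series, given below, called none. Inside the smaller series all 8 members were called higher in Responder than in NonResponder tumours, against 14.3% of all genes. There Slamf8 ran from 7.89 to 10.55 in 10 Responder tumours, against 5.38 to 7.17 in 9 NonResponder tumours, a difference of 2.46 ± 0.50 (limma adjusted p = 0.000740). Slamf7 ran from 7.06 to 9.30 in these Responder tumours, against 5.88 to 6.80 in these NonResponder tumours, a difference of 1.70 ± 0.34. The groups did not overlap for these 2 genes, and how many of all genes separate in this way was not counted. For Ly9 9 of 10 Responder arrays lay above every NonResponder array of the series, with a difference of 1.57 ± 0.33.

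Inside the larger series, which holds 17 Responder and 14 NonResponder tumours, only Slamf8 was called (1.46 ± 0.39, adjusted p = 0.0347), against 0.616% of all genes higher. Slamf7 stood at 0.71 ± 0.26 (adjusted p = 0.0944), Cd48 at 0.55 ± 0.29 and Slamf6 at 0.08 ± 0.17. With this series fitted alone by limma 0 of the 8 were called, and 2 had an unadjusted p under 0.05, as did 5339 of all genes. NonResponder replicate 14 belongs to this series. Without that array 5 members were called, Slamf7 (0.98 ± 0.23), Slamf8 (1.73 ± 0.37), Ly9 (0.68 ± 0.24), Cd48 (0.82 ± 0.25) and Cd84 (0.68 ± 0.24), against 6.40% of all genes higher.

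With all 5 arrays left out, 4 members were called in the larger series, with 6.25% of all genes higher, and 5 in the smaller series, with 6.69%. Slamf7, Slamf8 and Cd48 were among them in both. Slamf1 fell short in the smaller series without these arrays, with 0.34 ± 0.20, compared with 0.88 ± 0.32 when Responder replicates 20 and 21 were kept. Those 2 arrays hold Slamf1 values of 9.15 and 7.31, and the median of the 10 Responder arrays of the series is 5.62. A test of the difference between the series (interaction) called none of the 8 by limma, 0 of all genes, and gave 3 members an unadjusted p under 0.05, against 13.3% of all genes. Without the 5 arrays no member had one. With all arrays the 3 were Ly9 (larger minus smaller series -1.12 ± 0.42), Slamf7 (-0.99 ± 0.43) and Slamf6 (-0.54 ± 0.27).

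**Figure D2:**
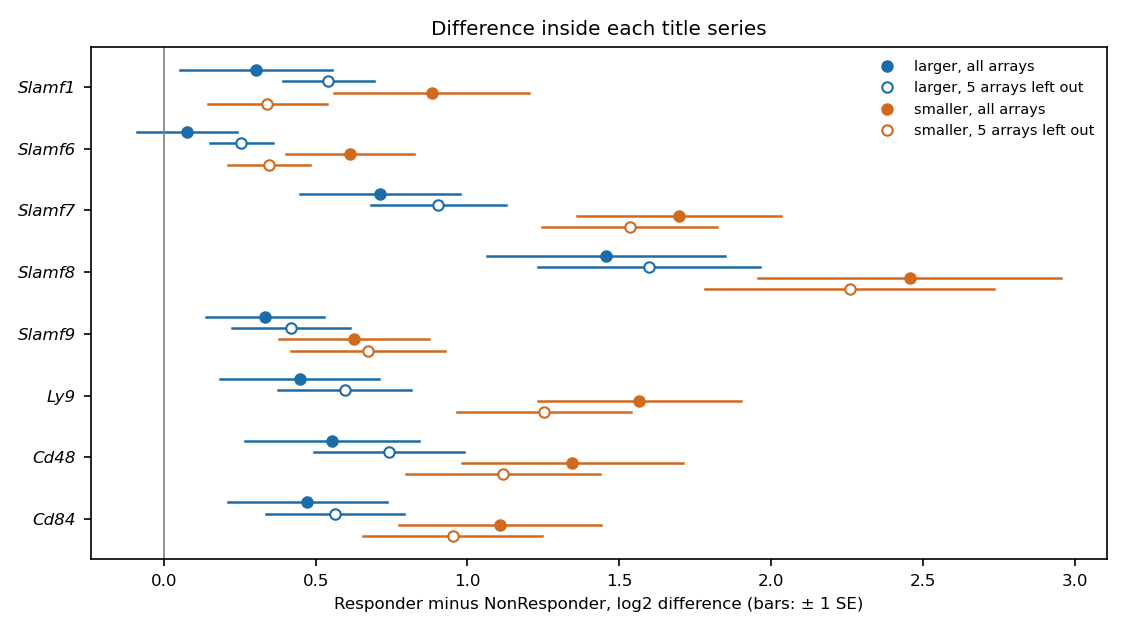
Responder minus NonResponder difference (log2, horizontal axis, bars ± 1 SE) for each SLAM gene inside the larger and the smaller title series, with all arrays (filled) and without the 5 arrays that stand apart (open). Slamf8 stands at 1.46 in the larger and 2.46 in the smaller series with all arrays, and at 1.60 and 2.26 without the 5.

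Set against the isotype control, Responder tumours again had more SLAM transcript. Responder exceeded control IgG in 6 of 8 members, with 14.5% of all genes called higher. Slamf8 had a median of 8.59 in Responder tumours, against 6.33 in control IgG tumours, whose values ran from 4.53 to 8.15. In 16 of 27 Responder arrays it lay above every control IgG array, and inside the larger series, the only one with both groups, in 7 of 17. The difference was 1.55 ± 0.38 (2.92-fold, adjusted p = 0.00235). Slamf7 had medians of 7.67 in Responder and 6.21 in control IgG tumours and differed by 1.04 ± 0.26 (adjusted p = 0.00285).

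Ly9 (0.81 ± 0.26, adjusted p = 0.0134), Cd48 (0.72 ± 0.27, adjusted p = 0.0337), Slamf1 (0.65 ± 0.24, adjusted p = 0.0300) and Slamf6 (0.40 ± 0.16, adjusted p = 0.0436) were also higher in Responder tumours. Slamf9 stood at 0.41 ± 0.18 (adjusted p = 0.0662). Cd84 stood at 0.26 ± 0.25 (adjusted p = 0.408), with medians of 8.96 in Responder and 8.32 in control IgG tumours. Without the 5 arrays that stood apart the same 6 members were called, with 15.3% of all genes higher, and Slamf8 read 1.35 ± 0.34. This comparison shares the Responder arrays with the one before and borrows the smaller series, which holds no control IgG, through the title series term. Directly inside the larger series 2 members were called, Slamf8 (1.36 ± 0.39, adjusted p = 0.0111) and Slamf7 (0.87 ± 0.26, adjusted p = 0.0150), against 10.9% of all genes higher.

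Tumours that grew under the PD-L1 antibody showed no such excess over the isotype control. NonResponder against control IgG called 0 of 8 members by limma, 0% of all genes, and no member had an unadjusted p under 0.05, which 4.61% of all genes had. Slamf8 read 6.24 in NonResponder and 6.33 in control IgG tumours (medians), with a difference of -0.29 and a 95% interval from -1.06 to 0.48. Slamf7 differed by -0.05, with an interval from -0.58 to 0.47. Cd84 had the largest difference of the 8, -0.45, with an interval from -0.97 to 0.06. In the direct contrast inside the larger series Slamf8 stood at -0.09 and Cd84 at -0.35, while Slamf7 (0.16), Ly9 (0.15), Slamf9 (0.03) and Cd48 (0.02) had the opposite sign to the joint model. Control IgG against PBS also called 0 members, with 0.00550% of all genes called and 1.32% at an unadjusted p under 0.05. Ly9 differed most there (0.30 ± 0.48), an estimate that rests on the larger series, the only one with both groups. Its medians in that series were 7.03 in control IgG and 6.99 in PBS tumours. Over all title series they were 7.41 and 6.38.

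Stabilization tumours, 3 arrays of the smaller series, had higher SLAM transcripts than NonResponder tumours in 5 members, Slamf8, Cd84, Cd48, Ly9 and Slamf7, against 10.5% of all genes called higher. Cd84 read 11.32, 10.87 and 8.74 in the Stabilization arrays, against 6.15, 7.93 and 10.57 (lowest, median, highest) in NonResponder tumours. Stabilization replicates 1 and 2 lay above all 23 NonResponder arrays, and replicate 3 lay inside their range. The difference was 1.71 ± 0.46 (3.26-fold, adjusted p = 0.00881).

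Slamf8 read 9.67, 9.79 and 8.04 in the Stabilization arrays, against a NonResponder median of 6.24, a difference of 2.37 ± 0.69 (5.18-fold, adjusted p = 0.0126). Cd48 read 10.39, 10.72 and 8.47 there, a difference from NonResponder of 1.41 ± 0.51 (adjusted p = 0.0366). In these genes too, replicates 1 and 2 were high and replicate 3 was lower. Ly9 differed by 1.40 ± 0.48 (adjusted p = 0.0278) and Slamf7 by 1.33 ± 0.47 (adjusted p = 0.0355). No member was called without Stabilization replicate 1 or without replicate 2, with 4 and 2 members at an unadjusted p under 0.05 and 2 and 872 of all genes called. Without the 5 arrays that stood apart only Slamf1 was called (1.12, adjusted p = 0.0321), against 2.18% of all genes higher. The direct contrast inside the smaller series without these arrays called 4 members, Slamf1, Slamf7, Slamf8 and Ly9, against 3.14% of all genes higher.

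The pan-leucocyte level, the mean of 8 genes carried by all white blood cells, was 12.33, 12.22 and 10.24 in the 3 Stabilization arrays, and replicate 3 was the lowest in it as in each SLAM gene. The macrophage level was 12.26, 11.98 and 10.05 in the same arrays. Other cell types differed as well. Between Stabilization and NonResponder 8 of 8 macrophage genes, 4 of 5 neutrophil genes (median difference 1.33) and 4 of 6 fibroblast genes (2.14) were called higher, and 2 of 7 melanocyte genes were called lower (-0.93). The neutrophil level ran from 7.19 to 8.49 in the Stabilization arrays, against 5.04 to 7.45 in NonResponder tumours, and the part of these lists in the result was not tested. With the pan-leucocyte level as a covariate no member was called between Stabilization and NonResponder, 18 of all genes were, and Cd84 stood at 0.39 ± 0.26. Stabilization against Responder called 0 members by limma, with 0.319% of all genes called, also without the 5 arrays that stood apart (2 genes called), and Cd84 was the only member with an unadjusted p under 0.05 (0.99 ± 0.46, adjusted p = 0.338), which 13.2% of all genes had.

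By mean level with the title series pooled, Relapse tumours lay between the Responder and NonResponder tumours for 7 of the 8 members. Inside the larger series Relapse lay above Responder for Slamf1 (0.06), Slamf9 (0.14), Ly9 (0.23), Cd48 (0.01) and Cd84 (0.13). It lay below for Slamf6 (-0.03), Slamf7 (-0.26) and Slamf8 (-0.27), and each of these differences was smaller than its SE. Inside the smaller series only Slamf9 lay above Responder (0.01). None of the 8 was called in Relapse against NonResponder by limma, although 8.43% of all genes were called higher, and 4 members had an unadjusted p under 0.05, as did 41.6% of all genes. Slamf8 had 6.48, 7.75 and 8.60 (lowest, median, highest) in 6 Relapse tumours, against 3.81, 6.24 and 9.68 in NonResponder tumours. All 6 Relapse arrays lay above the NonResponder median, and the difference was 1.27 ± 0.50 (adjusted p = 0.0560). Ly9 had 7.69, 8.29 and 8.73 in Relapse tumours, against a NonResponder median of 7.41, and differed by 0.71 ± 0.34 (adjusted p = 0.108).

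The calls in Relapse against NonResponder changed with the arrays and with the processing. Without NonResponder replicate 14 the model called 4 members, Slamf8 (1.43, adjusted p = 0.0211), Slamf7 (0.86, adjusted p = 0.0241), Ly9 (0.85, adjusted p = 0.0305) and Slamf9 (0.60, adjusted p = 0.0440), against 13.2% of all genes higher. Without all 5 arrays that stood apart 6 members were called, against 18.1% of all genes higher. Without the 3 arrays rich in B cell genes, replicate 14 among them, only Slamf7 was called. With replicate 14 kept, median centring called 1 member (797 of 18193 genes higher) and array weights called 7 (4355 of 18193 genes higher). Relapse against Responder called 0 members and 0% of all genes, with 4.41% of all genes and no member at an unadjusted p under 0.05. Slamf8 differed by -0.57 there, with a 95% interval from -1.55 to 0.41. These comparisons share the NonResponder or the Responder arrays with the ones above.

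In the 2 GrowthDelay tumours Slamf7, Slamf8, Slamf9, Cd48 and Cd84 lay below the NonResponder medians, and Slamf1, Slamf6 and Ly9 lay above them in at least 1 array. Slamf8 read 6.05 and 5.25 in them, Cd48 7.26 and 7.05, and Cd84 7.41 and 7.21. The NonResponder medians were 6.13, 7.59 and 7.63 in the larger series, which holds the GrowthDelay tumours, and 6.24, 7.82 and 7.93 over both series. These values lay inside the NonResponder range, while Slamf9, at 7.62 and 7.996, reached just below the lowest NonResponder value of 7.64. GrowthDelay against NonResponder called 0 members by limma, 0% of all genes, with no member and 3.12% of all genes at an unadjusted p under 0.05.

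By mean level with the title series pooled, Stabilization came first in all 8 genes. Responder followed and then Relapse in 7 of them, and for Slamf9 the order of these groups was turned round (9.09 ± 0.60 in Relapse and 8.93 ± 0.66 in Responder, SD). NonResponder, control IgG, PBS and GrowthDelay followed in varying order. For Slamf8 the means were 9.16 ± 0.97 in Stabilization, 7.62 ± 0.88 in Relapse, 8.07 ± 1.38 in Responder, 5.65 ± 0.57 in GrowthDelay, 6.25 ± 1.13 in NonResponder, 6.28 ± 1.07 in control IgG and 5.63 ± 0.57 in PBS tumours (SD). The gap that exceeded the SD of the neighbouring groups was the one below Relapse, 1.34 between Relapse and control IgG. All other gaps between neighbours in the order for Slamf8 were smaller than the larger SD of the pair. The pooled order did not hold throughout inside a series. In the smaller series, the only one with Stabilization tumours, Responder had the higher mean for Slamf6 (5.81 against 5.66) and Slamf7 (7.96 against 7.91). Stabilization had it for the other members. In the larger series Relapse lay above Responder for Slamf1, Slamf9, Ly9, Cd48 and Cd84.

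**Figure D3:**
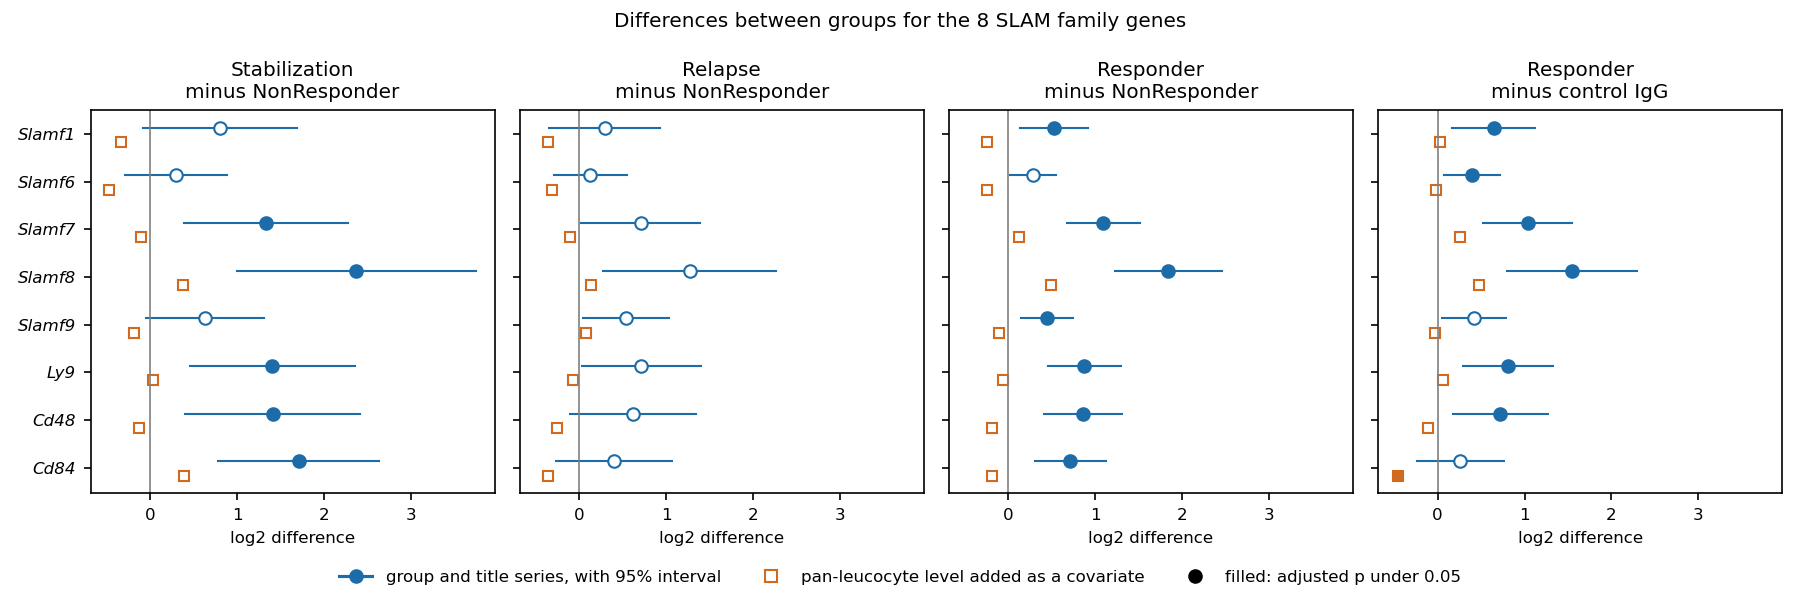
Log2 differences for the 8 SLAM genes in 4 comparisons, with 95% intervals from the model with group and title series (circles) and with the pan-leucocyte level added as a covariate (squares), filled where the adjusted p is under 0.05. Slamf8 lies furthest right in each panel with the first model, and the squares lie close to 0, between -0.47 and 0.49.

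Bulk tumour RNA cannot tell fewer cells of a type from less RNA per cell, and levels of leucocyte genes moved with the SLAM genes. The pan-leucocyte level had a median of 10.98 (range 8.82 to 12.72) in Responder, against 9.73 (8.41 to 12.79) in NonResponder tumours, and 7 of its 8 genes were called higher. Among them Ptprc, the common leucocyte antigen, rose by 1.25 ± 0.24. T cell genes were called in 8 of 9 cases, with a median difference of 1.19 and Cd3g, part of the CD3 complex, at 2.00 ± 0.33. Macrophage genes were called in 8 of 8 cases, with a median of 0.89 and Csf1r, the receptor that keeps macrophages alive, at 1.32 ± 0.27. B cell genes were called in 0 of 5 cases, and 3 of 4 natural killer cell genes were called. Genes induced by interferon gamma were called in 9 of 9 cases, with a median of 0.81, and fibroblast genes in 6 of 6, with a median of 1.15.

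With the pan-leucocyte level of each array added to the model as a covariate, 0 of 8 members and 0 of all genes were called between Responder and NonResponder, with 2 members and 3158 of all genes at an unadjusted p under 0.05. The difference was 0.49 for Slamf8 (adjusted p = 0.163) and 0.12 for Slamf7 (adjusted p = 0.532), and the other 6 members turned negative, from -0.06 for Ly9 to -0.25 for Slamf1. Against control IgG the same model left Slamf8 at 0.47 (adjusted p = 0.113) and called Cd84, with the opposite sign (-0.45, adjusted p = 0.0389), 1 of 8 members beside 1150 of 18193 genes. The covariate is itself an expression measure that differed between the groups, and the SLAM genes are leucocyte genes.

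**Figure D4:**
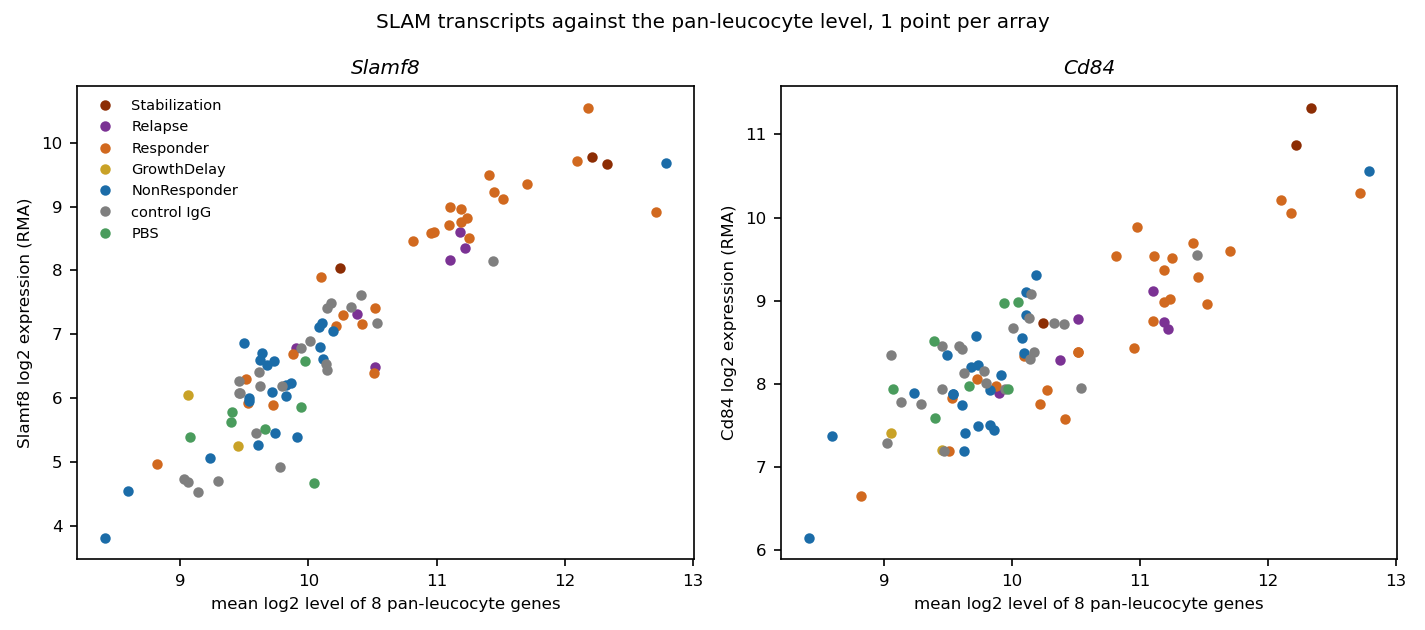
Log2 expression of Slamf8 (left) and Cd84 (right) against the mean log2 level of 8 pan-leucocyte genes, 1 point per array, coloured by group. Both genes increase with the leucocyte level over all groups, and NonResponder replicate 14 is the point at the right end of the range, at 12.79.

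Within groups the members differed in the marker list they followed most closely. Ranks were correlated over the 90 arrays after the mean of each group and title series had been removed. The arrays share their normalization and their mixture of cells, so these values are descriptions. Slamf8 followed the list of genes induced by interferon gamma with a Spearman's rho of 0.92 and the T cell list with 0.89, more closely than the macrophage list with 0.67. Cd84 showed the opposite order, with 0.72 for the macrophage list and 0.42 for the interferon gamma list. Slamf7 was closest to the T cell list (0.86) and the pan-leucocyte list (0.83), with 0.75 for the interferon gamma list and 0.72 for the macrophage list. Slamf1 and Slamf6 were closest to the dendritic cell list, with 0.80 and 0.77, and to the T cell list, with 0.79 and 0.73. Over the 84 arrays without those that stood apart, the T cell list came first for Slamf1 (0.76, against 0.75 for the dendritic cell list), and Slamf6 had 0.70 with the dendritic cell list and 0.66 with the T cell list. The pan-leucocyte list came first for Cd48 (0.82), Ly9 (0.78), Cd84 (0.75) and Slamf9 (0.65). Every member also had a positive rho with the T cell, macrophage and dendritic cell lists. The melanocyte list had a negative rho with every member, from -0.17 for Slamf8 to -0.47 for Cd84. These values rested in part on the arrays that stood apart, since over 84 arrays Slamf8 had -0.077, Slamf6 -0.16 (-0.32 over 90), Slamf1 -0.22 (-0.41 over 90) and Cd84 -0.52.

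Among themselves, the members with the closest relation were Cd48 and Cd84 (rho 0.86), which lie in the gene cluster, and Slamf7 and Slamf8 (0.85), which do not lie together. The loosest pair was Slamf6 and Slamf9 (0.40). Without the 5 arrays that stood apart and Relapse replicate 6 these values were 0.84, 0.87 and 0.39 over 84 arrays.

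**Figure D5:**
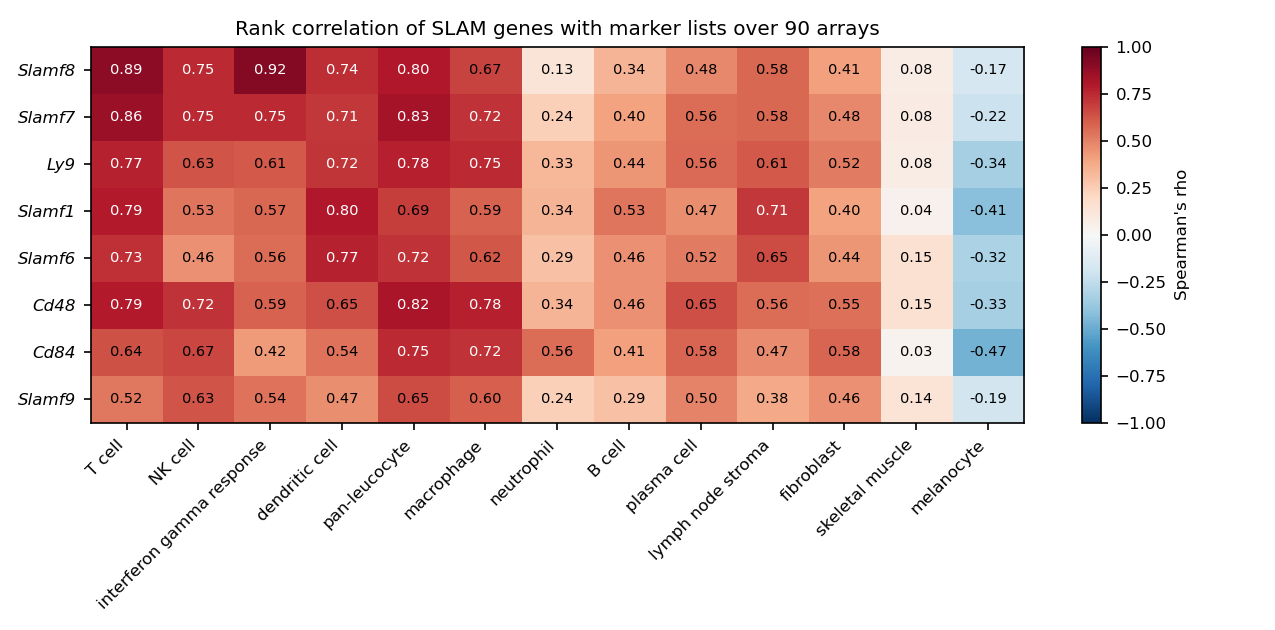
Spearman's rho between each SLAM gene (vertical axis) and the mean level of each marker list (horizontal axis) over 90 arrays, after removal of the mean of each group and title series. Slamf8 is highest with the interferon gamma list (0.92) and near 0 with skeletal muscle (0.08), and Cd84 has the highest value of the 8 genes with the neutrophil list (0.56).

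Of all 18193 genes, those that ran most like Slamf8 were Gbp8, an interferon-induced guanylate-binding protein (rho 0.94), the chemokine gene Ccl5 (0.93) and Nkg7, a granule protein of cytotoxic lymphocytes (0.92). For Cd84 they were the lysosomal protease gene Ctsh (0.95), the myeloid inhibitory receptor gene Cd300a (0.95) and the ubiquitin ligase gene Marchf1 (0.92). Cd48 ran with Glipr1 (0.92), Otulinl (0.92) and the leucocyte surface gene Cd52 (0.91). The 3 genes closest to Slamf7 were Themis2, Ptpn22 and Ikzf1, a regulator, a phosphatase and a transcription factor of leucocytes, all at 0.87. Slamf9 ran with the macrophage genes Aif1 (0.82), Fcgr4 (0.81) and Ms4a6c (0.79).

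Ly9 ran with Fli1 (0.82), Ltb, which encodes lymphotoxin beta (0.82), and Ptprc (0.81). Slamf1 was closest to Gimap3 (0.82), Parvg (0.80) and the B cell gene Cd22 (0.80), and Slamf6 to Spint2 (0.78), Sash3 (0.78) and Bcl11b, a T cell transcription factor (0.77). Over the 84 arrays without those that stood apart the value for Slamf1 and Cd22 was 0.70, while that for Slamf8 and Gbp8 was 0.95.

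The partners through which SLAM receptors bind and signal were read from a list of 17 genes, 14 of them measured with a probe set of their own. Between Responder and NonResponder 11 of the 14 were called higher and none lower, against 17.2% and 29.8% of all genes. Sh2d1a, the adaptor SAP, differed by 0.86 ± 0.23 (adjusted p = 0.00290), with means of 5.49 in Responder and 4.66 in NonResponder tumours. Cd244a, which encodes the receptor for CD48, differed by 0.35 ± 0.08 (adjusted p = 0.00113), and Cd2, the other receptor for CD48 in mice, by 1.17 ± 0.24. Cybb, the catalytic subunit of the phagocyte oxidase that SLAMF8 restrains, rose by 1.30 ± 0.26. The phosphatase genes Inpp5d (1.05 ± 0.23) and Ptpn6 (0.69 ± 0.18), the exchange factor gene Vav1 (0.87 ± 0.21) and the kinase gene Fyn (0.46 ± 0.10) were called as well.

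Plcg2 (0.29), Ptpn11 (0.17) and Becn1 (0.16) were called with smaller differences. Prkcq (-0.06 ± 0.09), Plcg1 (0.18 ± 0.09) and Pik3c3 (0.12 ± 0.05) were not called. Against control IgG 12 of the 14 were called higher in Responder tumours (14.5% of all genes), Pik3c3 in addition to those 11. Against NonResponder, Stabilization tumours had 6 of the 14 higher and Prkcq lower (-0.63 ± 0.21, adjusted p = 0.0253), against 10.5% of all genes higher and 11.9% lower. Sh2d1b1 and Sh2d1b2, the genes of the adaptor EAT-2, share a probe set that carries several symbols and were not analysed here.

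The target of the antibody and its receptor were read once beside the members. Cd274, which encodes PD-L1, differed by 0.74 ± 0.12 (adjusted p = 5.17e-05) and Pdcd1, which encodes PD-1, by 1.19 ± 0.21 (adjusted p = 0.000103) between Responder and NonResponder tumours, so both were higher in Responder tumours, as Slamf8 and Slamf7 were.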

How the data were processed

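RNA of 90 allografts was amplified from 800 ng and hybridised to Affymetrix mouse arrays, 1 array per sample. The values are on the log2 scale and were deposited by the authors after RMA, per the submitters' processing notes, which also name limma. Versions and the set of arrays normalized together are not given in the sources used here. Of 45101 probe sets, 64 controls were left out, and 34945 carried 1 gene symbol. Each of 18193 genes was read from the probe set with the highest mean. With arrays there is no sequencing depth, and precision is limited by the number of arrays.

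One model per gene with group and title series was fitted to all 90 arrays (limma 3.58.1, R 4.3.3, lmFit and eBayes), with two-sided p-values adjusted by Benjamini-Hochberg and a threshold of 0.05. Direct contrasts inside a title series, and their difference, used a separate coefficient for every combination of group and series. The procedure was checked on simulated data. Of 111 listed genes (members, partners and markers), 102 were measured. Members, lists and motifs were chosen with earlier results of these data known. The text names the 8 members, the partners, up to 4 markers of a list in its order, Cd274, Pdcd1 and the 3 genes most like each member. Alternatives covered the probe set, scaling, dim genes, title series, array weights, a leucocyte covariate and arrays left out. Sequences come from RefSeq.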

Additional observations from a re-analysis of the deposited data

Results flagged for a closer look

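In groups of 4 to 10 arrays, taken inside a title series or, for Relapse and PBS, also over the whole group, 48 checks for a single array far from the rest were made, and chance flags about 1 in 20 of such groups, or 2.4 of 48. The checks found 3. Slamf9 in PBS replicate 7 stood at 8.85, the highest of the 4 PBS arrays of their own series, whose next value was 8.42. Slamf6 in Responder replicate 20 stood at 7.57, the highest of 10 Responder arrays of the smaller series, whose next value was 6.20. This is the Responder array with B cell genes at 10.43. Cd84 in Responder replicate 23 stood at 8.33, the lowest of the same 10 arrays, whose next value was 9.28. No cause was tested for any of the 3.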

How the results depend on the processing

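Responder against NonResponder called 7 members. With the mean of all probe sets of a gene it called 6, without Slamf1 (2750 genes higher). With the probe set of largest variance it called 8 (3113 genes higher). It called 4 of 4 members tested with dim genes left out (2393 of 9097 genes higher). It called 1 in the larger title series by direct contrast, 0 with that series fitted alone, and 4 there without the 5 arrays that stand apart. With the pan-leucocyte covariate it called 0. Leaving out NonResponder replicate 14, in the joint model or directly in the larger series, gave 5 to 8. Responder against control IgG called 6 members, and 2 of 4 with dim genes left out (2213 of 9097 genes higher). It called 2 in the larger series by either route and 1 with the covariate. With the mean of all probe sets of a gene it called 4, without Slamf1 and Slamf6 (2200 genes higher). With the probe set of largest variance it called 5, without Slamf6 (2428 genes higher). Stabilization against NonResponder called 5, and 3 of 4 with dim genes left out (1385 of 9097 genes higher). It called 8 with array weights (9950 of 18193 genes called), 0 with the covariate and 1 without the 5 arrays. Leaving out single arrays gave 0 to 6, the 6 without Stabilization replicate 3 and beside 6666 genes called. Stabilization against Responder called 0, and 6 with array weights (6394 genes called, against 58), with 0 to 1 when a Stabilization array was left out. The 1 was Cd84 without replicate 3, beside 2727 genes called. Relapse against NonResponder called 0, and 1 with median centring (Slamf8), 7 with array weights (10278 genes called, against 3697) and 6 without the 5 arrays. It called 1 without the 3 arrays rich in B cell genes (Slamf7). In the smaller series without the 5 arrays it called 1, beside 11.5% of all genes higher. Without single arrays it called 0 to 4, the 4 without NonResponder replicate 14 and beside 13.2% of all genes higher. Median centring put the median of all genes in Relapse against NonResponder at -0.18, against -0.06 without it, and left 797 genes higher of 7349 called, against 1533 of 3697; quantile normalization left 333 of 1327. Median centring left 2012 of 8234 higher for Responder against control IgG, against 2641 of 6791, and 1656 of 5248 for Stabilization against NonResponder, against 1912 of 4074. The cause was not tested, except that the dim gene filter tests only 4 members. Relapse against Responder, GrowthDelay against NonResponder, NonResponder against control IgG, control IgG against PBS and the series interaction called 0 members under every alternative run.

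Signs of single members were followed over the alternatives in 4 comparisons, and there they turned only with the pan-leucocyte covariate, in 21 values. Between Responder and NonResponder they were -0.25 (Slamf1), -0.24 (Slamf6), -0.11 (Slamf9), -0.061 (Ly9), -0.19 (Cd48) and -0.18 (Cd84), and against control IgG -0.021 (Slamf6), -0.026 (Slamf9), -0.11 (Cd48) and -0.45 (Cd84). Between Stabilization and NonResponder they were -0.33 (Slamf1), -0.47 (Slamf6), -0.10 (Slamf7), -0.19 (Slamf9) and -0.13 (Cd48). Between Relapse and NonResponder they were -0.36 (Slamf1), -0.31 (Slamf6), -0.11 (Slamf7), -0.073 (Ly9), -0.26 (Cd48) and -0.35 (Cd84). Outside these 4, uncalled values close to 0 also changed sign in direct contrasts, as between NonResponder and control IgG. Leaving out arrays that stand apart or are rich in B cell genes, or replicate 14, was added after seeing the data. No paired analysis was possible because replicate numbers only follow accession order and the labels pair no arrays. Slamf1, Slamf6, Slamf7 and Slamf8 average below the median gene, where background limits what a difference shows.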
